A study of Mus musculus with 15 samples.

Results

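The effect of the retinoid X receptor (RXR) agonist CD3254 was measured over all genes in 266-6 cells, a mouse pancreatic acinar line, by setting every library that received CD3254 against every library that did not. The comparison used 12 of the 15 RNA sequencing libraries of the series. The 6 libraries with CD3254 were 3 with AM580 and CD3254 together and 3 with CD3254 alone. The 6 without it were 3 with AM580 alone and 3 with the vehicle DMSO. AM580 is an agonist selective for the retinoic acid receptor RARα. All cells were kept for 24 h in stripped medium and then received the ligands or vehicle for another 24 h. The 3 libraries with 9-cis retinoic acid carry another ligand and were not part of the comparison. All values come from 1 tumour-derived line, the ligand concentrations are not in the labels, and the labels do not say whether replicates were separate cultures. The p-values therefore measure only the spread between these libraries, which may be technical.

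RXRs bind DNA as dimers, often with a partner receptor such as a retinoic acid receptor (RAR), a liver X receptor (LXR) or a peroxisome proliferator-activated receptor (PPAR). Dimers with LXR or PPAR are permissive, which means that a ligand of RXR alone can activate them, whereas dimers with RAR respond mainly when RAR itself carries an agonist. LXR target genes move cholesterol out of cells and remodel phospholipids, PPAR target genes handle fatty acids as fuel, and RAR target genes include the enzymes that clear retinoic acid.

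Genes were assigned between 28501170 and 44972993 reads per library, and 16540 genes had enough reads to be tested. A total of 4 libraries, 1 of each treatment, stood apart from the other 8 on the first principal component, which carried 56.4% of the variance: AM580+CD3254 replicate 2 and replicate 1 of CD3254, of AM580 and of DMSO. The summed level of 26 tested genes that respond to low oxygen or serve glycolysis was 16500 to 25800 CPM (reads of a gene relative to the TMM-scaled library size) in these 4 libraries and 2860 to 3610 CPM in the other 8. By ligand, that sum had a lowest, median and highest value of 2860, 3330 and 19200 CPM with CD3254, against 3090, 3520 and 25800 CPM without it. The model held a term for AM580 and a term for this library set, which was read from the same counts. Acinar identity was visible in all 12 libraries. Cpa1, a pancreatic carboxypeptidase, ranged from 395 to 602 CPM with CD3254 and from 387 to 898 CPM without it, and all 10 listed acinar transcription factors, Ptf1a among them, were expressed at levels that could be tested. Amy2a5, Cpb1, Ctrc, Klk1 and Reg2 had too few reads to be tested. In a bulk culture, fewer cells of a kind and less RNA per cell cannot be told apart, and this holds for every level below.

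CD3254 raised 16 genes and lowered 2 at a false discovery rate (FDR, Benjamini-Hochberg over all genes tested) under 0.05 in edgeR's quasi-likelihood test, which is 0.0967% and 0.0121% of the genes tested and 0.109% in either direction. The genes that rose were the retinoic acid hydroxylase Cyp26b1, the PPAR targets Angptl4, Pdk4, Cpt1a and Acot2, the LXR targets Abca1, Abcg1, Lpl, Acsl3, Lpcat3, Scd2 and Acaca, and Gramd1b, Rnf145, Fmo5 and Dnah6. The genes that fell were Penk and Pcx. Angptl4, Cpt1a, Abca1, Abcg1 and Acsl3, named from earlier results of these data as marks of the CD3254 response, were all among the raised genes. By AM580 and library set the libraries fall into 4 strata. For each of the 16 raised genes, every library with CD3254 was above every library without it in all 4 strata, which held for 250 genes or 1.51% of those tested. For both lowered genes every library with CD3254 was below in all 4 strata, which held for 385 genes or 2.33%. Because the strata use the same libraries as the test, their count describes the called genes and does not add to the test.

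**Figure D1:**
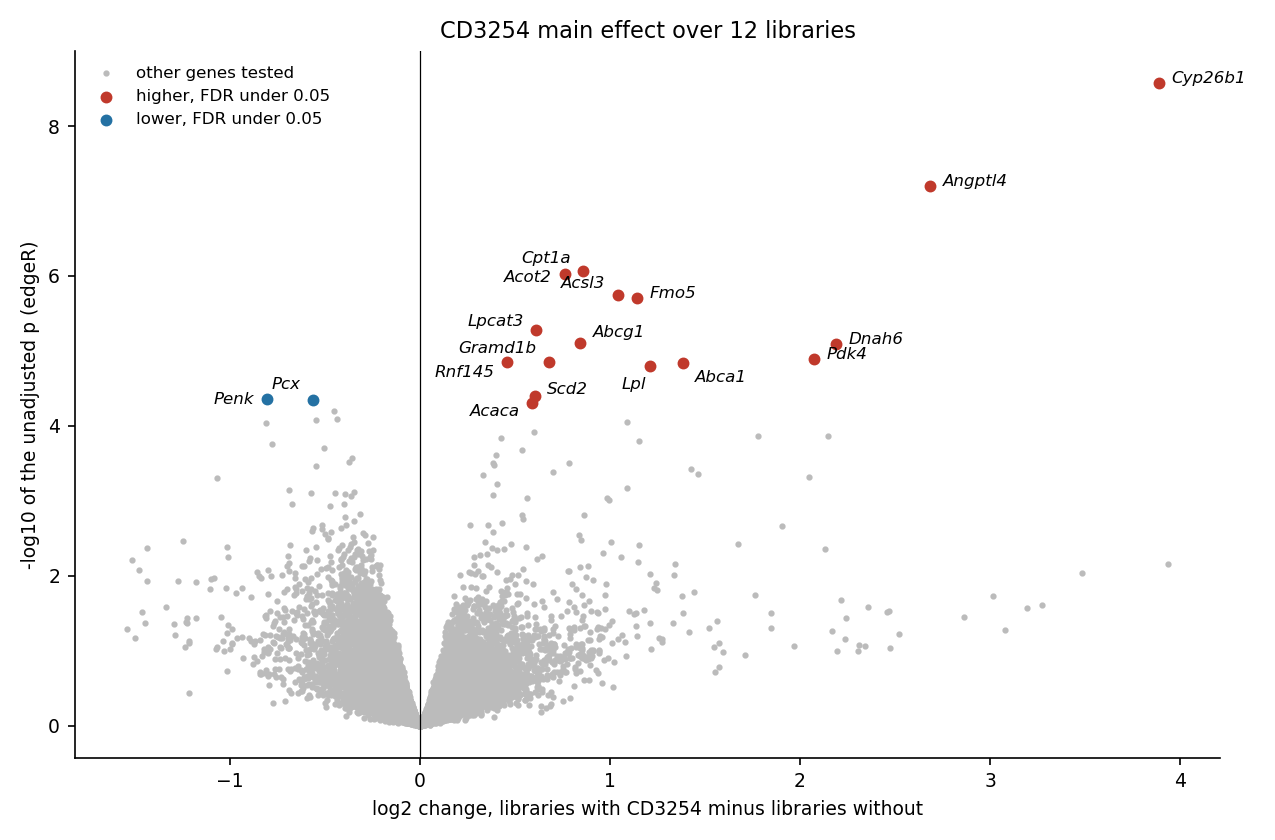
Fitted log2 change with CD3254 minus without it (horizontal axis) against −log10 of the unadjusted p in edgeR (vertical axis) for 16540 genes, with called genes named. The 16 genes that rose stand at the right and reach 3.89 for Cyp26b1, while the 2 that fell, Penk and Pcx, stand at the left within 1 log2 unit of 0.

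Fewer genes separated the pooled groups completely. All 6 libraries with CD3254 were above all 6 without it for 7 of the 16 raised genes (Acsl3, Abcg1, Abca1, Lpl, Gramd1b, Pdk4 and Dnah6), and such a separation held for 16 genes, 0.0967% of those tested. The reverse separation held for Penk and for 17 genes in all, 0.103% of those tested. At an unadjusted p under 0.05, 326 genes were higher and 711 lower with CD3254, or 1.97% and 4.3% of the genes tested and 6.27% in either direction. Without AM580 replicate 1 these counts were 346 and 410 of 16880 genes tested in edgeR. In the 8 libraries that did not stand apart they were 464 and 503 of 16524. Lower genes outnumbered higher ones in every fit that left out 1 library, but the size of this excess depended on the libraries used.

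Cyp26b1 (ENSMUSG00000063415, minus strand of chromosome 6 from 84571414 to 84593908, build GRCm38) encodes a cytochrome P450 that oxidises and clears retinoic acid. Its level was 54.1, 128 and 35.8 CPM with AM580+CD3254, against 7.02, 2.2 and 2.50 CPM with AM580 alone. Without AM580 it was 4.78, 1.45 and 1.13 CPM with CD3254, against 0.672, 0.216 and 0.0509 CPM with DMSO. Within either background the ligand groups did not overlap, but no library with CD3254 alone exceeded the highest library with AM580 alone, so the pooled groups overlapped. The pooled increase was 3.89 ± 0.26 on the log2 scale (SE), 14.8-fold (FDR 4.39e-05, edgeR). The increase was 4.24 ± 0.25 with AM580 present and 2.98 ± 0.32 without AM580. The difference between the log2 changes was 1.26 ± 0.43 and did not pass the interaction test (FDR 0.903, edgeR).

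Cyp26b1 was 1 of 18 tested genes on a list of RAR targets, and no other gene of the list passed in edgeR. Of the 18, 12 had a log2 change above 0, with a median of 0.08. Over all genes tested, 47.1% lay above 0 and the median was -0.015. Dhrs3, which reduces retinaldehyde to retinol, had a log2 change of 0.56 (FDR 0.28, edgeR). Enpp1, also on the list, had 0.43 (FDR 0.0886, edgeR). The alternative tests called both higher. DESeq2 gave FDR 0.00929 for Dhrs3 and 6.74e-05 for Enpp1, and voom with quality weights gave 0.00226 and 0.00528. Rarb, a receptor gene under its own RAR control, had 0.50 (FDR 0.701, edgeR). Among 15 tested genes of retinoid metabolism, which share Cyp26b1 with the RAR list, 5 were above 0 and the median was -0.05.

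Angptl4 (ENSMUSG00000002289, minus strand of chromosome 17 from 33773750 to 33781830) encodes a secreted inhibitor of lipoprotein lipase and is a standard PPAR target. It stood at 57.9, 11.9 and 57.5 CPM with AM580+CD3254, against 1.19, 12.4 and 9.90 CPM with AM580. It stood at 18.9, 59.4 and 57.5 CPM with CD3254, against 1.03, 15.3 and 10.2 CPM with DMSO. The low libraries in each group were those of the set that stood apart, and within either set the levels with and without CD3254 did not overlap. The pooled increase was 6.43-fold, or 2.68 ± 0.24 on the log2 scale (SE, FDR 0.000522, edgeR). It came to 2.60 ± 0.34 with AM580 present and 2.77 ± 0.34 without AM580.

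Cpt1a (ENSMUSG00000024900, plus strand of chromosome 19 from 3322334 to 3385733), which lets long-chain fatty acids into mitochondria, had a lowest, median and highest level of 133, 222 and 260 CPM with CD3254, against 68.9, 113 and 162 CPM without it. The pooled levels overlapped through the libraries that stood apart, the lowest in each group. The fold was 1.81 (log2 0.86 ± 0.10, FDR 0.00391, edgeR). Acot2 (ENSMUSG00000021226, plus strand of chromosome 12 from 83987861 to 83993873), a mitochondrial acyl-CoA thioesterase, had 15.4, 24.7 and 25.9 CPM with CD3254, against 7.76, 15.5 and 16.8 CPM without it. Only libraries that stood apart, at 15.4 and 16.6 CPM, kept the groups from separating. Its fold was 1.69 (log2 0.76 ± 0.09, FDR 0.00391, edgeR). Acot2 and its near-identical neighbour Acot1 may share reads, so the value of either is uncertain. Acot1 had a log2 change of 1.09 ± 0.19 and missed the threshold (FDR 0.0664, edgeR), while DESeq2 and voom with quality weights called it.

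Pdk4 (ENSMUSG00000019577, minus strand of chromosome 6 from 5483351 to 5496309), a kinase that switches off pyruvate dehydrogenase and spares glucose, had few reads. It had 0.654, 0.976 and 1.34 CPM with CD3254, against 0.119, 0.248 and 0.340 CPM without it, and the groups did not overlap. The fold was 4.21 (log2 2.07 ± 0.30, FDR 0.0183, edgeR). Pdk4 was 1 of 13 tested genes on the list of PPAR targets in lipid storage, uptake and signalling, of which 2 rose, Angptl4 being the other. In that list 10 of 13 had a log2 change above 0, with a median of 0.07. The lipid droplet coat gene Plin2 had 0.05 and the fatty acid carrier Cd36 had 0.04.

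On the list of PPAR targets in fatty acid oxidation, 2 of 23 tested genes rose (Cpt1a and Acot2), 19 had a log2 change above 0 and the median was 0.08. Among the acyl-CoA dehydrogenases, Acadl had a log2 change of 0.23 and Acadm had 0.09. The trifunctional protein subunits Hadhb and Hadha had 0.18 and 0.04, and Eci2, an enoyl-CoA isomerase, had 0.18. None of these 5 passed in edgeR (FDR 0.701 to 0.844), while voom with quality weights called Acadl and Eci2. Slc25a20, the carnitine carrier that works with Cpt1a, had 0.34 (FDR 0.659, edgeR) and was also called by voom with quality weights (FDR 0.0063).

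**Figure D2:**
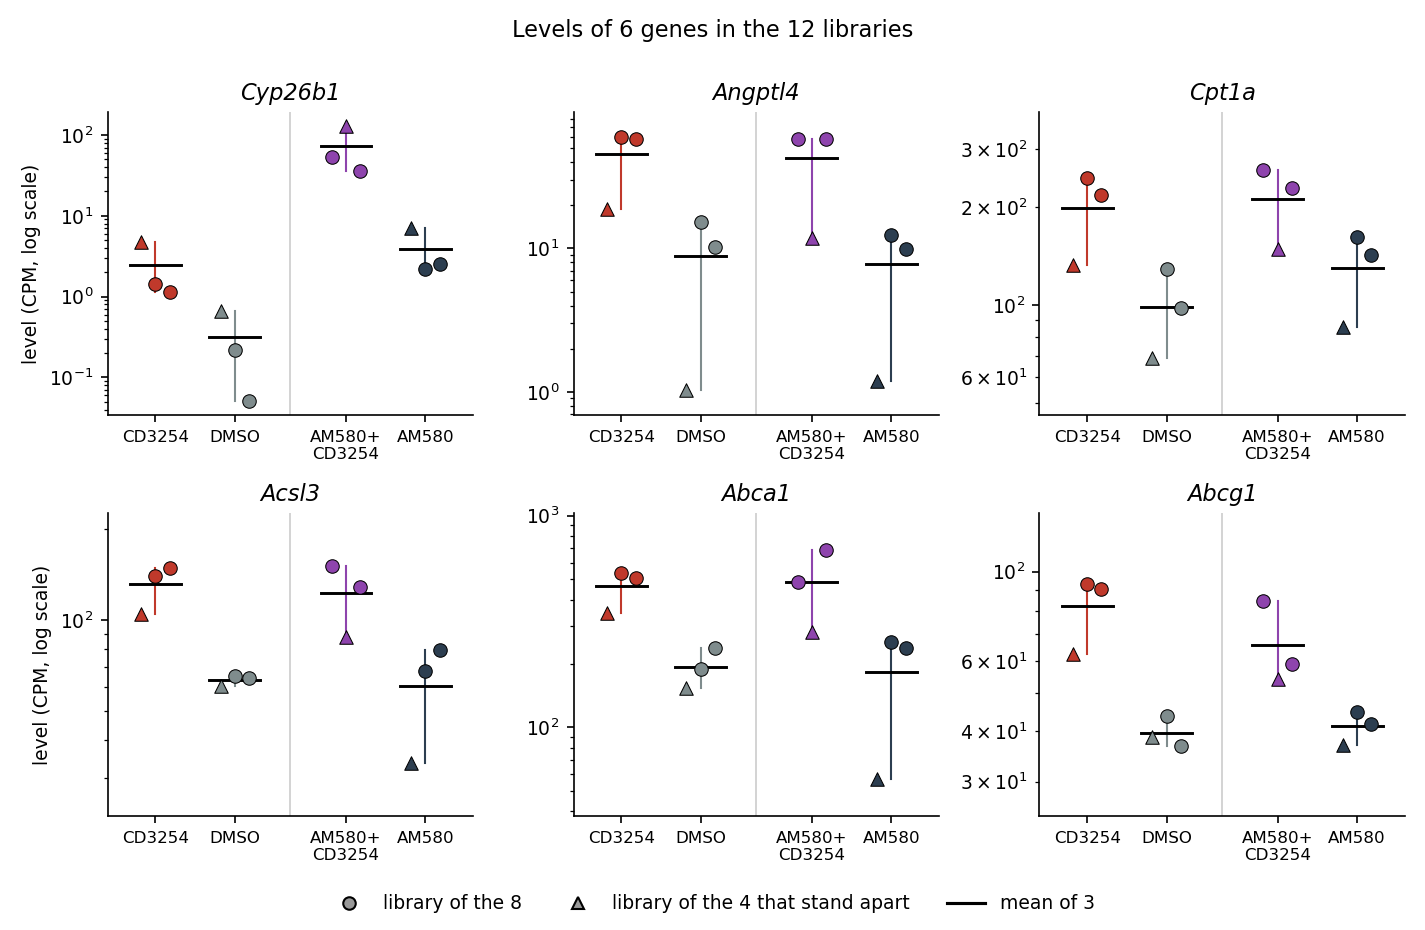
Level of 6 raised genes in each of the 12 libraries, in CPM on a log axis, with each group that received CD3254 left of its match without it, bars at the mean of 3 libraries, and the 4 libraries that stand apart as triangles. Cyp26b1 spans 0.0509 to 128 CPM and is highest with both ligands, and the triangles are the lowest libraries of every group for Angptl4 and Cpt1a.

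Acsl3 (ENSMUSG00000032883, plus strand of chromosome 1 from 78657825 to 78707743) encodes an acyl-CoA synthetase of lipid droplets and the endoplasmic reticulum. Of the called genes with a promoter in RefSeq, it was the only one with a match to a direct repeat of the receptor half-site, and its 250 bases before the transcription start are shown for that reason. The sequence is the plus strand of chr1:78657575-78657824 in build GRCm38.p6, from RefSeq, with the matching element in capitals.
Acsl3 promoter: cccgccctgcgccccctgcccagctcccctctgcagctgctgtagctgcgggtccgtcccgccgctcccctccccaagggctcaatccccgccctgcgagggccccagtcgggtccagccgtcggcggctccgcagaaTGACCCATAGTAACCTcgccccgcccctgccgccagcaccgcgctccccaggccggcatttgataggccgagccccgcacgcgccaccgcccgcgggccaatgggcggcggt
The element spans 78657713 to 78657728 and begins at base -112. Read on the opposite strand it matches DR4, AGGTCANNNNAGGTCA, the arrangement known for RXR with LXR, with 2 mismatches. Up to 2 mismatches on either strand were allowed, and the windows searched ran from 250 bases before to 50 after each start. Among 32851 promoters 3.02% held DR4, 3.86% held DR1 (AGGTCANAGGTCA, spaced as for RXR with PPAR) and 2.79% held DR5 (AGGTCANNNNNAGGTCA, spaced as for RXR with RAR). A promoter entry was found for 12 of the 18 called genes, with 15 windows in all. Of these windows 1 held DR4, 0 held DR1 and 0 held DR5, and one stretch may match more than one motif. A match describes the letters and is not a measured binding site.

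Acsl3 had 151, 87.8 and 129 CPM with AM580+CD3254, against 33.5, 67.6 and 79.7 CPM with AM580. It had 105, 140 and 149 CPM with CD3254, against 60.2, 65.1 and 64.0 CPM with DMSO. Every library with CD3254 was above every library without it. The fold was 2.06 (log2 1.04 ± 0.12, FDR 0.00538, edgeR), with 1.06 ± 0.18 in the presence of AM580 and 1.03 ± 0.18 without AM580. Utp14b, which overlaps Acsl3 on the same strand, had a log2 change of 1.00 and did not pass (FDR 0.286, edgeR). DESeq2 and voom with quality weights called it, and reads shared between overlapping genes may not be told apart. Of the 14 tested lipid droplet and acyl-CoA synthetase genes Acsl3 alone passed, 7 had a log2 change above 0 and the median was 0. The related synthetases Acsl4 and Acsl1 had 0.25 and 0.23 (FDR 0.701 for each, edgeR).

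Of the sterol exporters, Abca1 (ENSMUSG00000015243, minus strand of chromosome 4 from 53030787 to 53159895), which loads cholesterol onto apolipoprotein A-I, had 487, 283 and 686 CPM with AM580+CD3254, against 56.9, 253 and 238 CPM with AM580. It had 346, 538 and 509 CPM with CD3254, against 154, 189 and 237 CPM with DMSO. No library without CD3254 reached the lowest library with it. The fold was 2.61 (log2 1.38 ± 0.20, FDR 0.0183, edgeR). Abcg1 (ENSMUSG00000024030, plus strand of chromosome 17 from 31057675 to 31117988), which exports cholesterol to larger lipoproteins, had a lowest, median and highest level of 54.0, 73.4 and 93.3 CPM with CD3254, against 36.9, 40.3 and 44.7 CPM without it. The groups were fully apart. The fold was 1.80 (log2 0.85 ± 0.12, FDR 0.015, edgeR). The paired half-transporters Abcg5 and Abcg8, LXR targets that export sterols in liver and intestine, had log2 changes of 1.78 ± 0.33 and 2.15 ± 0.40 and missed the threshold (FDR 0.0875 for each, edgeR). DESeq2 and voom with quality weights called both. These neighbours overlap on opposite strands, and their reads may not be told apart.

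Lpl (ENSMUSG00000015568, plus strand of chromosome 8 from 68880491 to 68907448), the lipoprotein lipase that Angptl4 inhibits, had 10.8, 20.6 and 30.2 CPM with CD3254, against 4.60, 8.82 and 10.2 CPM without it. The groups did not overlap. The fold was 2.31 (log2 1.21 ± 0.18, FDR 0.0188, edgeR). On the list of LXR targets in sterol efflux and lipoprotein handling 3 of 13 tested genes rose (Abca1, Abcg1 and Lpl), 8 had a log2 change above 0 and the median was 0.36. Mylip, a ubiquitin ligase gene, had 0.22 (FDR 0.706, edgeR). Apoe, an apolipoprotein, had -0.09 (FDR 0.87, edgeR).

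A pair of called genes outside the fixed lists also belongs to sterol handling. Gramd1b (ENSMUSG00000040111, minus strand of chromosome 9 from 40293233 to 40531383), which carries cholesterol from the plasma membrane to the endoplasmic reticulum, had 76.0, 79.4 and 86.0 CPM with CD3254, against 34.9, 52.4 and 57.7 CPM without it. The 6 libraries with CD3254 lay close together, with no overlap (fold 1.60, log2 0.68 ± 0.10, FDR 0.0183, edgeR). Rnf145 (ENSMUSG00000019189, plus strand of chromosome 11 from 44518964 to 44565520), a ubiquitin ligase of the endoplasmic reticulum known as an LXR target in mouse liver, had 155, 164 and 229 CPM with CD3254, against 105, 118 and 172 CPM without it. The ranges overlapped through the libraries that stood apart, which were the higher ones for this gene, and the fold was 1.38 (log2 0.46 ± 0.07, FDR 0.0183, edgeR).

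Lpcat3 (ENSMUSG00000004270, plus strand of chromosome 6 from 124663027 to 124704418), which puts polyunsaturated chains into phospholipids, had 122, 141 and 208 CPM with CD3254, against 87.5, 92.6 and 132 CPM without it. The 1 library without CD3254 inside the range of those with it was AM580 replicate 1. The fold was 1.53 (log2 0.61 ± 0.08, FDR 0.0124, edgeR), and part of the gene lies opposite Emg1. Scd2 (ENSMUSG00000025203, plus strand of chromosome 19 from 44293674 to 44306864), a stearoyl-CoA desaturase, had 1330, 1700 and 2790 CPM with CD3254, against 893, 1120 and 1890 CPM without it. Its pooled ranges overlapped, and the fold was 1.52 (log2 0.60 ± 0.10, FDR 0.0435, edgeR). Its paralog Scd1 had 0.32 (FDR 0.701, edgeR) and was called by voom with quality weights. How many reads the paralogs share was not measured.

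Acaca (ENSMUSG00000020532, plus strand of chromosome 11 from 84129672 to 84401651), the acetyl-CoA carboxylase that makes malonyl-CoA for fatty acid synthesis, had 73.5, 87.5 and 103 CPM with CD3254, against 46.8, 56.9 and 75.5 CPM without it. The ranges met at their edges, where AM580 replicate 2 exceeded CD3254 replicate 1. The fold was 1.51 (log2 0.59 ± 0.10, FDR 0.0462, edgeR). Of 11 LXR targets in lipid synthesis and remodelling, all tested, 4 rose (Acsl3, Lpcat3, Scd2 and Acaca), 9 had a log2 change above 0 and the median was 0.33. Srebf1, the regulator of lipogenic genes and itself an LXR target, had 0.45 (FDR 0.701, edgeR) and was called by voom with quality weights. Fasn, the fatty acid synthase, had 0.00 (FDR 0.991, edgeR).

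The 18 tested lipogenic enzymes and regulators, which include Scd2 and Acaca as the genes that rose, had 10 members above 0 and a median of 0.03. Genes of cholesterol synthesis, uptake and SREBP2 control did not pass in either direction. Of 27 tested, 9 had a log2 change above 0, the median was -0.05 and the range was -0.30 to 0.17.

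**Figure D3:**
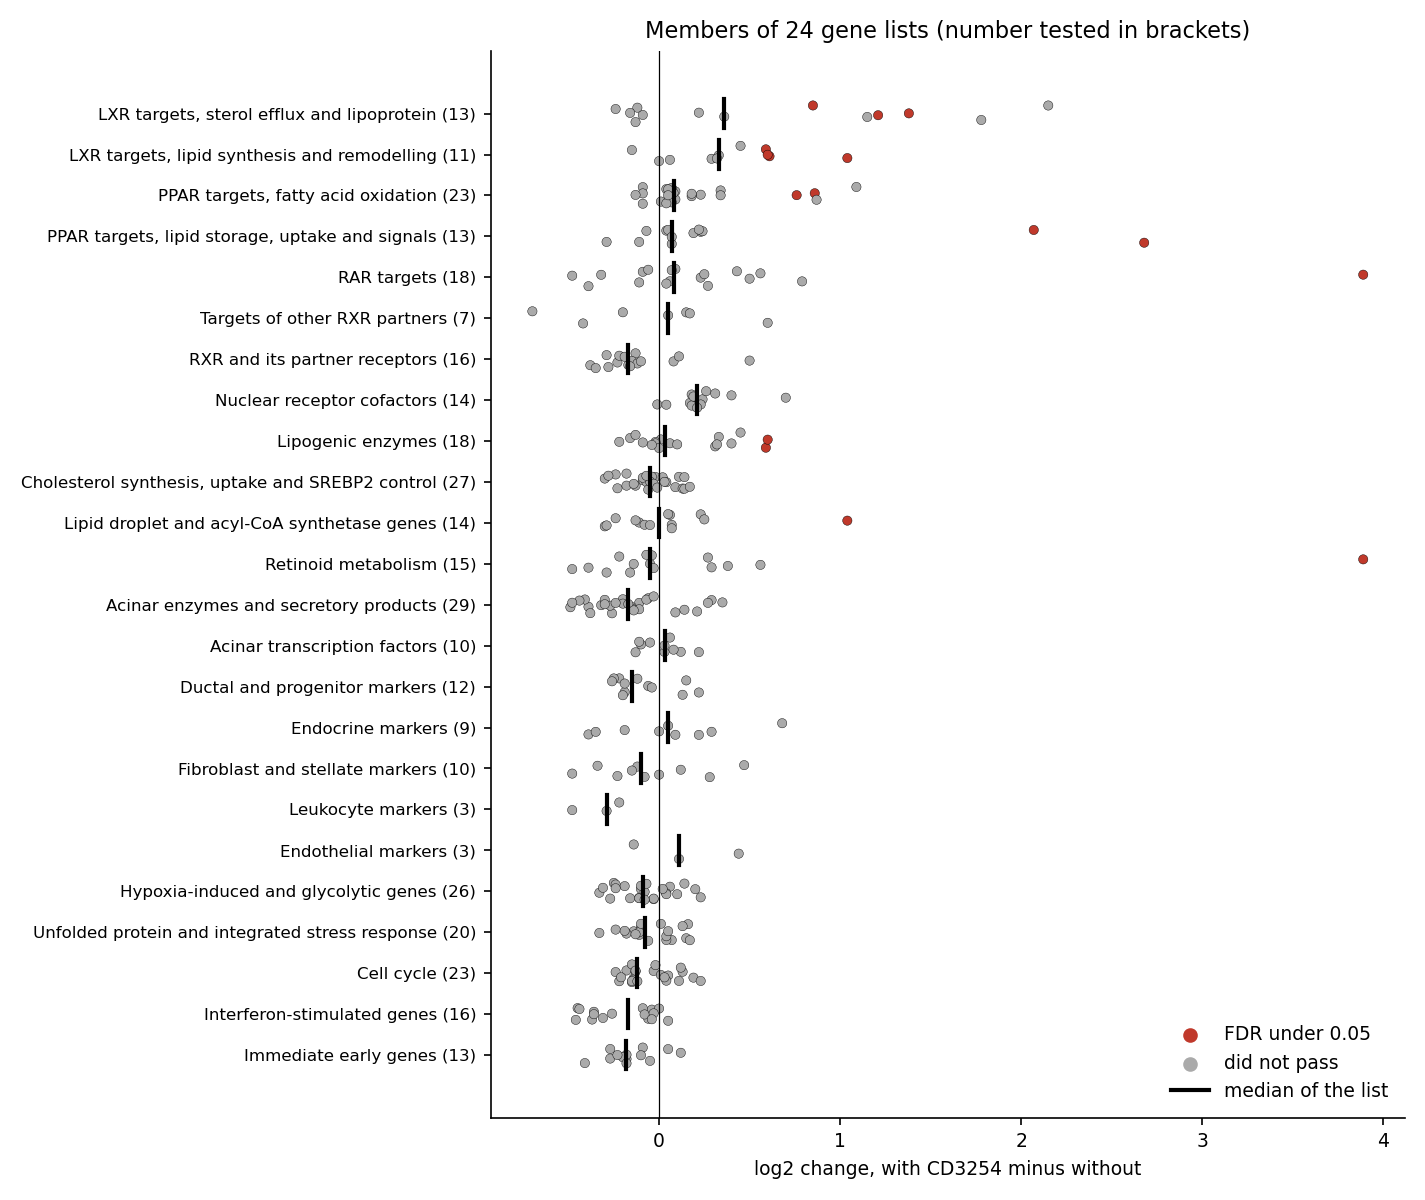
Log2 change with CD3254 minus without it for each tested gene of the lists, with called genes in red and the median of each list as a bar. Called genes lie in the LXR, PPAR, RAR, lipogenic, lipid droplet and retinoid lists, and the cholesterol synthesis genes lie between -0.30 and 0.17.

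Fmo5 (ENSMUSG00000028088, plus strand of chromosome 3 from 97628804 to 97655282), a flavin-containing monooxygenase, had 38.8, 15.8 and 28.5 CPM with AM580+CD3254, against 8.45, 14.1 and 16.1 CPM with AM580. It had 6.16, 11.1 and 9.99 CPM with CD3254, against 3.44, 4.48 and 3.46 CPM with DMSO. The ligand groups were apart without AM580, and with AM580 a single library, AM580+CD3254 replicate 2, lay within the range of AM580 alone. The fold was 2.21 (log2 1.14 ± 0.14, FDR 0.00538, edgeR), with 1.08 ± 0.20 in the presence of AM580 and 1.21 ± 0.20 without AM580. Dnah6 (ENSMUSG00000052861, minus strand of chromosome 6 from 73017606 to 73221651), an axonemal dynein chain of motile cilia, is named although it fell under the 1 CPM set for naming. It had 0.353, 0.800 and 1.04 CPM with CD3254, against 0.0299, 0.188 and 0.340 CPM without it (fold 4.57, log2 2.19 ± 0.30, FDR 0.015, edgeR).

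Penk (ENSMUSG00000045573, minus strand of chromosome 4 from 4133531 to 4138819), the precursor of the enkephalin peptides, had 54.5, 53.4 and 50 CPM with AM580+CD3254, against 132, 70.4 and 80.8 CPM with AM580. It had 55.0, 58.3 and 57.1 CPM with CD3254, against 84.3, 104 and 105 CPM with DMSO. The 6 libraries with CD3254 lay close together, and all were below the lowest library without it. Penk fell by 0.81 on the log2 scale (SE 0.13), to 0.572 of its level without CD3254 (FDR 0.0435, edgeR). An antisense gene overlaps it, and reads from the 2 strands may not be told apart.

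Pcx (ENSMUSG00000024892, plus strand of chromosome 19 from 4510472 to 4621752), the pyruvate carboxylase that feeds oxaloacetate to the citric acid cycle, had 36.8, 69.0 and 29.9 CPM with AM580+CD3254, against 106, 53.6 and 52.4 CPM with AM580. It had 65.9, 36.5 and 35.9 CPM with CD3254, against 93.4, 57.0 and 42 CPM with DMSO. The libraries that stood apart were the highest in each group, and the pooled ranges overlapped. Pcx fell by 0.56 (SE 0.09), to 0.678 of the level without CD3254 (FDR 0.0435, edgeR).

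The next lower genes by p missed the threshold in edgeR, though DESeq2 and voom with quality weights called each of them. Gas7, a cytoskeletal protein gene, had a log2 change of -0.45 (FDR 0.0546, edgeR). Oxct1, which activates ketone bodies for use as fuel, had -0.44 (FDR 0.0656, edgeR). Tmem184a, a membrane protein gene, had -0.54 (FDR 0.0656, edgeR).

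The pooled effect averages the response with AM580 and the response without it, and these responses share no library. All 16 raised genes had a log2 change above 0 in both backgrounds, and both lowered genes were below 0 in both. The calls came from these same libraries, so the shared signs describe the called genes and do not add to the test. Abcg1 had 0.67 ± 0.15 with AM580 present and 1.02 ± 0.15 without AM580. Abca1 had 1.52 ± 0.29 with AM580 and 1.24 ± 0.29 without AM580, and Lpl had 1.13 ± 0.26 with AM580 and 1.29 ± 0.26 without AM580. Both responses were also tested in edgeR's fit of all 12 libraries with the interaction term. Among the called genes, Cyp26b1 passed with AM580 present, and Cyp26b1, Angptl4 and Cpt1a passed without AM580. No gene passed the test of CD3254 by AM580 interaction in edgeR (lowest FDR 0.903), 457 genes or 2.76% had an unadjusted p under 0.05, and DESeq2 also called 0. A p that misses the threshold does not show that the responses were equal.

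**Figure D4:**
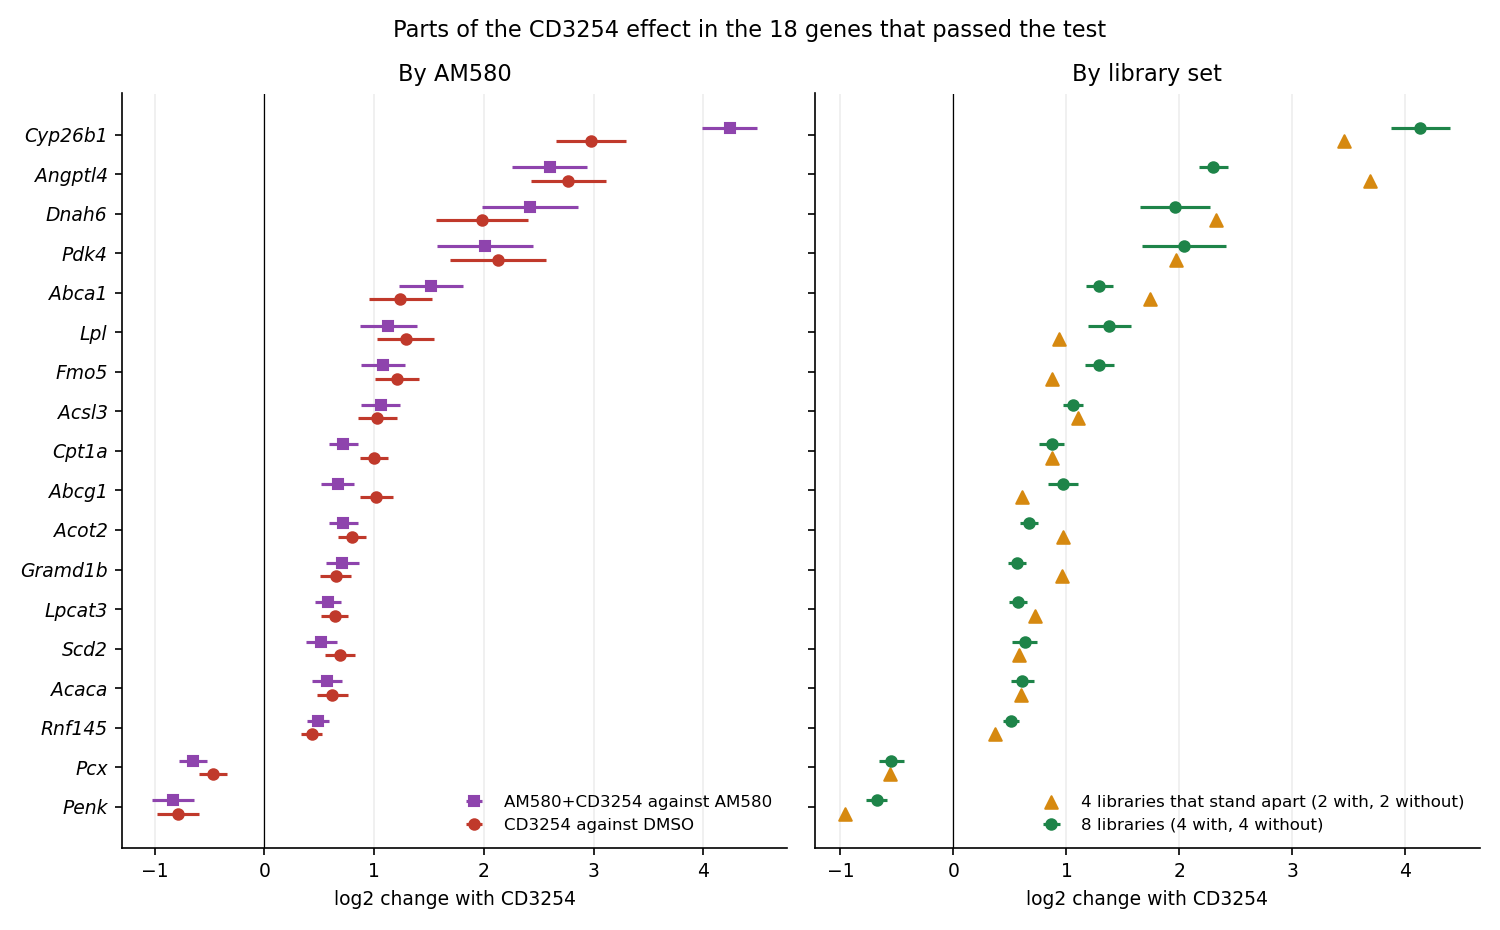
Log2 change with CD3254 of the called genes with AM580 and without AM580, and in the 8-library and 4-library sets, in log2 units with error bars of 1 SE where a test was possible. Values of the 4-library set are differences of mean log2 CPM, and the others are fitted changes. All 18 genes, which were called on these same libraries, keep their direction throughout. Cyp26b1, at 4.24 with AM580 and 2.98 without AM580, and Angptl4, at 2.30 in the 8 libraries and 3.69 in the 4, lie widest apart.

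In the 8 libraries of the larger set alone, 15 genes rose and 1 fell in edgeR's test, 13 of them among the 18, and all 18 had the sign of the pooled effect. The 4 libraries that stood apart hold 1 per treatment. They give differences of mean log2 CPM, which are not fitted changes and have no test, and these too had the pooled sign for all 18. Both sets are part of the comparison that made the calls, so the shared sign does not add to the test. Angptl4 had 2.30 ± 0.13 in the 8 libraries and a difference of 3.69 in the 4. The fitted difference between sets for Angptl4, 1.48 ± 0.30, had an unadjusted p of 0.000437 in edgeR and did not pass (FDR 0.967, edgeR). Across all genes 0 passed the test of CD3254 by library set in edgeR, and 318 or 1.92% had an unadjusted p under 0.05. DESeq2 called 3 genes there, Angptl4 (1.48, larger in the 4), mt-Nd6 (1.72) and the predicted gene Gm10169 (-1.27), in log2 units, which are named after their values were seen.

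The calls depended on the term for the library set. Without it 0 genes passed in edgeR, with a lowest FDR of 0.444 and 235 genes at an unadjusted p under 0.05, while the log2 changes of the 18 kept their signs. Leaving out 1 library at a time left between 6 and 20 genes higher and between 0 and 4 lower. Cyp26b1, Angptl4, Cpt1a, Acot2, Acsl3 and Fmo5 passed in all 12 such fits. The other 12 called genes were each lost in 5 to 10 of them, with no change of sign and an FDR of at most 0.191 in edgeR. The calls of Abcg1 and Lpcat3 remained in 7 of 12 and those of Abca1, Lpl and Penk in 3 of 12.

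**Figure D5:**
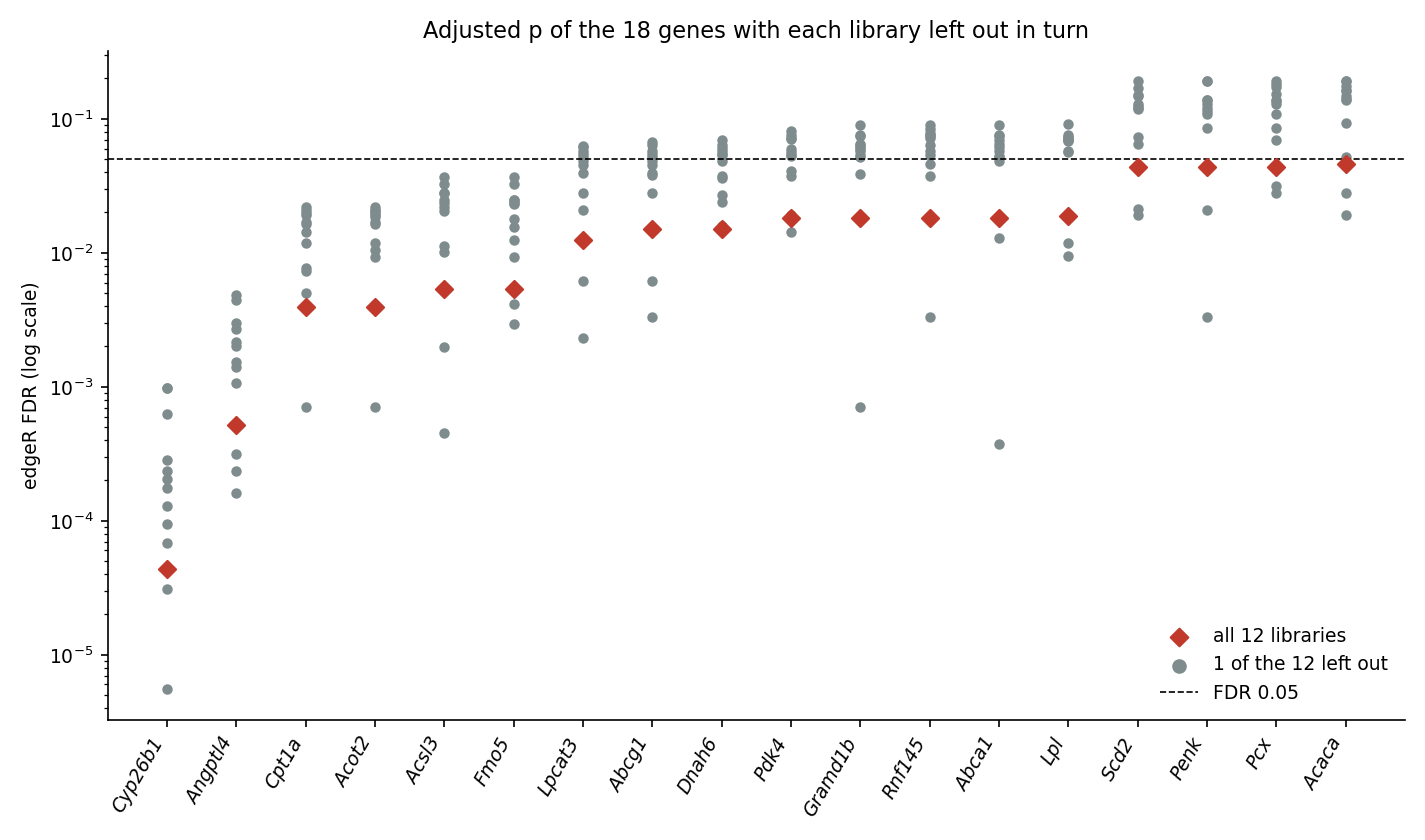
FDR of each called gene in the fit of all 12 libraries and in the 12 fits that leave out 1 library each, on a log axis with the 0.05 threshold drawn. Cyp26b1, Angptl4, Cpt1a, Acot2, Acsl3 and Fmo5 stay under the threshold throughout, while Abca1, Lpl and Penk stay under it in 3 of 12 fits.

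Receptor genes themselves did not pass. Of 16 tested genes for RXRs and their partners 3 had a log2 change above 0, with a median of -0.17. Rxra had -0.19 and Pparg, the adipogenic PPAR, had -0.35 (FDR 0.701 for each, edgeR). Among 14 tested cofactor genes 13 were above 0, with a median of 0.21 and none past the threshold. That median was 0.37 with AM580 present, 0.05 without AM580 and 0.14 in the 8 libraries of the larger set. Klf9, a thyroid hormone receptor target, had 0.60 (FDR 0.0824, edgeR) and was 1 of 7 tested targets of other RXR partners, none of which passed in that fit. DESeq2 and voom with quality weights called Klf9.

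Genes that define the acinar cell did not pass in edgeR either. Among them, voom with quality weights called Cela1 (log2 change 0.63, FDR 0.00987) and Pnliprp1 (0.54, FDR 0.0148) higher. Of 29 tested acinar enzymes and secretory products 6 had a log2 change above 0, with a median of -0.17. Their summed level had a lowest, median and highest value of 7920, 9920 and 11500 CPM with CD3254, against 7980, 10200 and 14800 CPM without it. The 10 acinar transcription factors had a median of 0.03, and 6 were above 0. Of the other listed groups, no gene passed among 12 ductal, 9 endocrine, 10 fibroblast, 3 leukocyte or 3 endothelial markers tested. Summed leukocyte markers were at 6.13 to 12.5 CPM with CD3254 and 6.39 to 26.8 CPM without it.

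Stress and growth lists held no called gene. The median log2 change was -0.09 for 26 low-oxygen and glycolytic genes, -0.08 for 20 genes of the unfolded protein response and -0.12 for 23 cell cycle genes. Among 16 interferon-stimulated genes 1 was above 0 and the median was -0.17, and among 13 immediate early genes 2 were above 0 and the median was -0.18. In the 8 libraries of the larger set alone, the interferon and immediate early medians were -0.06 and -0.07. There the medians were -0.02 for the unfolded protein response, -0.02 for the cell cycle and -0.1 for the low-oxygen and glycolytic genes. The median SE of a log2 change over all genes was 0.144, so changes as small as these medians were not detectable in single genes.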

How the data were processed

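The authors deposited raw read counts per Ensembl gene for 15 libraries in 1 table, all of whose sample columns were mapped by name. FastQC, HISAT2 2.2.1, SAMtools 1.18, HTSeq and build mm10 are named in the submitters' processing notes. Which annotation release and strand setting were used is not given in the sources used here. The table held 43432 gene IDs, of which 42462 matched a symbol, and 5 categories of reads without a gene that held 18.1% to 28.5% of reads and stayed out of library sizes and tests. Among the 12 libraries compared, no 2 of the same treatment agreed within counting noise, and pairs across treatments were not checked. Coordinates are from GENCODE M21 on GRCm38.

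Counts of the 12 libraries were filtered with filterByExpr on the 4 treatments, scaled by TMM and tested two-sided with edgeR 4.0.16 (robust quasi-likelihood, limma 3.58.1, R 4.3.3) for CD3254, with terms for AM580 and library set, leaving 8 residual degrees of freedom. Interaction terms were added in separate fits. Each SE was derived from the test, as the absolute log2 change divided by the square root of its F statistic. DESeq2 1.42.0, voom with quality weights, RLE factors, other filters, other terms, all 15 libraries and fits without each library served as alternatives. The fits were tested on simulated counts with known changes. CPM are TMM-scaled, and sums of lists are over tested genes.

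Named genes were the 5 given with the comparison, the 12 of smallest FDR and 5 of largest fold each way with a mean of at least 1 CPM, called list members and, for the lower direction, the 5 of smallest p. Predicted genes were counted but not named unless said otherwise. Dnah6 and the members of lists that did not pass were named after their values were seen. The comparison, its members, the library set and the 24 gene lists were chosen with earlier results of these data known, so they are not independent support. Lists share genes and were not tested as sets. Values of some list members are not reported here.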

Additional observations from a re-analysis of the deposited data

Results flagged for a closer look

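In AM580 replicate 1, 3 of the described genes were far from the other 5 libraries without CD3254 by Dixon's criterion: Cyp26b1 at 7.02 CPM and Lpcat3 at 132 CPM above the rest, and Lpl at 4.6 CPM below it. This criterion was met in 3 of the 42 groups of 6 libraries examined. Its chance rate of about 5% holds for like libraries, whereas each group joined different treatments and both library sets. AM580 replicates 2 and 3, which carry the same ligand, had 2.2 and 2.5 CPM for Cyp26b1, 94 and 91 CPM for Lpcat3, and 9.31 and 10.2 CPM for Lpl. Replicate 1 belongs to the set that stood apart, and the part of that set in these values was not tested.

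The 3 libraries with 9-cis retinoic acid, which binds RXR and RAR, were outside the comparison, and 2 of the 16 genes raised by CD3254 were above every DMSO library in all 3 of them, as were 350 of the 16540 genes tested (2.12%). The lowest of the 3 for Cyp26b1 was 3.58 CPM, against at most 0.66 CPM with DMSO, and the lowest for Fmo5 was 9.39 CPM, against at most 4.38 CPM with DMSO. Penk was at 66.3 to 73.1 CPM with 9-cis retinoic acid and at 82.7 to 104 CPM with DMSO, a separation that 341 genes (2.06%) showed. These levels are scaled over all 15 libraries and were not tested.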

How the results depend on the processing

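The 16 genes higher and 2 lower with CD3254 became 44 and 26 with DESeq2 and 51 and 25 with voom and quality weights, each including all 18. Both counts were 0 without the library set term (235 at an unadjusted p under 0.05), and the cause was not tested. Lower genes numbered 1 in the 8 libraries of the larger set, 4 without the AM580 term and 1 with all 15 libraries. Leaving out 1 library gave 6 to 20 higher and 0 to 4 lower genes, and the cause was not tested. RLE factors gave 16 and 3, no filter 20 and 2, and a filter of at least 1 CPM in 6 libraries 14 and 2. No called gene changed sign in any setting that included it, and all settings share libraries with the main fit.

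Whether replicate numbers pair the libraries could not be decided. The 18 same-numbered pairs had deviations correlated at -0.689 to 0.823, 12 of them over 0.1. Of the 12 libraries, 5 correlated best with their own number. Every negative value among the same-numbered pairs joined libraries of different library sets, so these correlations carry the set as well. A replicate block beside the library set term left 9 higher and 0 lower genes (787 at an unadjusted p under 0.05), and a replicate block in its place left 0 and 0 (216 at that p).

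None of the settings run called a gene for CD3254 by AM580. For CD3254 by library set, DESeq2 called 3 genes, and leaving out 1 library gave 0 to 2433, the highest without DMSO replicate 1. AM580 replicate 1 is in that case the only library of the smaller set without CD3254. Depth limits genes such as Pdk4 and Dnah6, whose levels were near or under 1 CPM.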
